A study of Mus musculus with 2 samples.

Results

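The angiotensin II receptor genes Agtr1a, Agtr1b and Agtr2 and the ion transporter genes Atp1b1, Atp2b3, Cacna1h, Cacna1d and Kcnj5 were described in long-read RNA sequencing of the mouse adrenal gland. The 8 genes were chosen by name, and every transcript model assigned to them was taken, annotated or new. They are 8 of the 16457 annotated genes with a read in either library. Both libraries came from 1 group and no other group was sequenced. The animals were males of the strain B6CASTF1/J, the first-generation hybrid of C57BL/6J and CAST/EiJ, aged 2 months, with no treatment or engineered allele named in the labels. The gland was taken whole, so cortex, medulla and the tissue attached to the gland were sequenced together. The labels give both libraries 1 shared donor identifier and number the animals inconsistently. They are therefore not shown to be separate animals, and the spread between them may be technical.

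Angiotensin II acts on the outer cortical zone of the adrenal, the zona glomerulosa, through the AT1 receptor. This receptor couples to Gq, phospholipase C and release of calcium from stores. Glomerulosa cells are held at a negative voltage by potassium channels, and angiotensin II or raised potassium depolarises them. Calcium then enters through voltage-gated channels and drives transcription of Cyp11b2, the aldosterone synthase. Rodents carry a duplicated AT1 receptor gene, Agtr1a and Agtr1b, and the AT2 receptor is encoded by Agtr2. Kcnj5 encodes an inwardly rectifying potassium channel, Cacna1d an L-type and Cacna1h a T-type calcium channel pore. Atp2b3 encodes a plasma membrane calcium pump and Atp1b1 the beta-1 subunit of the sodium pump. In human aldosterone-producing adenomas, KCNJ5, CACNA1D, CACNA1H and ATP2B3 are known sites of somatic mutation.

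The tables hold the number of reads per transcript model, with 824225 reads in replicate 1 and 656826 in replicate 2 outside the spike-in RNAs. Levels are given in CPM, counts scaled to the library total, so that 1 read was worth 1.21 CPM in replicate 1 and 1.52 CPM in replicate 2. A long read counts once whatever the transcript's length, so the CPM was not divided by length when genes were compared. Whether long transcripts were captured as fully as short ones was not tested, so the order of genes of unlike length is uncertain. The intervals on CPM are exact 95% Poisson intervals and those on shares are Wilson 95% intervals. Both cover counting error only. The 4 glomerulosa markers (Cyp11b2, Dab2, Wnt4 and Hsd3b6) all had reads and summed to 1982 and 2835 CPM in replicates 1 and 2. The fasciculata markers summed to 16589 and 19415 CPM and the chromaffin markers to 11251 and 12408 CPM. Fat cell markers summed to 7725 CPM in replicate 1 and 3917 CPM in replicate 2, endothelial markers to 460 and 678 CPM, and smooth muscle markers to 294 and 195 CPM. Glial markers summed to 36 and 22 reads. Of 5 kidney markers, Aqp2 alone had reads, with 6 in each library. In whole tissue, fewer cells of a type and less RNA per cell cannot be told apart.

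All 8 genes had reads in both libraries, with levels from over 100 reads down to 1 read. Together they held 262 reads in replicate 1 and 265 reads in replicate 2, which is 0.0318% and 0.0403% of each library. Atp1b1 led with 155 ± 43.0 CPM and Agtr1a followed with 127 ± 18.4 CPM (SD, n = 2 for every mean). They ranked 1267 and 1593 among the genes by mean CPM. Cacna1h stood at 37.8 ± 0.319 CPM, Agtr2 at 15.2 ± 4.26 CPM and Agtr1b at 11.7 ± 5.77 CPM. Atp2b3 stood at 10.2 ± 9.27 CPM, Cacna1d at 1.97 ± 0.639 CPM and Kcnj5 at 1.37 ± 0.219 CPM. Among neighbours in this order, Agtr1a over Cacna1h was the one step at which the counting intervals stood apart in both libraries. The step from Cacna1h to Agtr2 had intervals that stood apart in replicate 2 and overlapped in replicate 1. The intervals of the other 5 neighbouring pairs overlapped in both libraries.

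**Figure D1:**
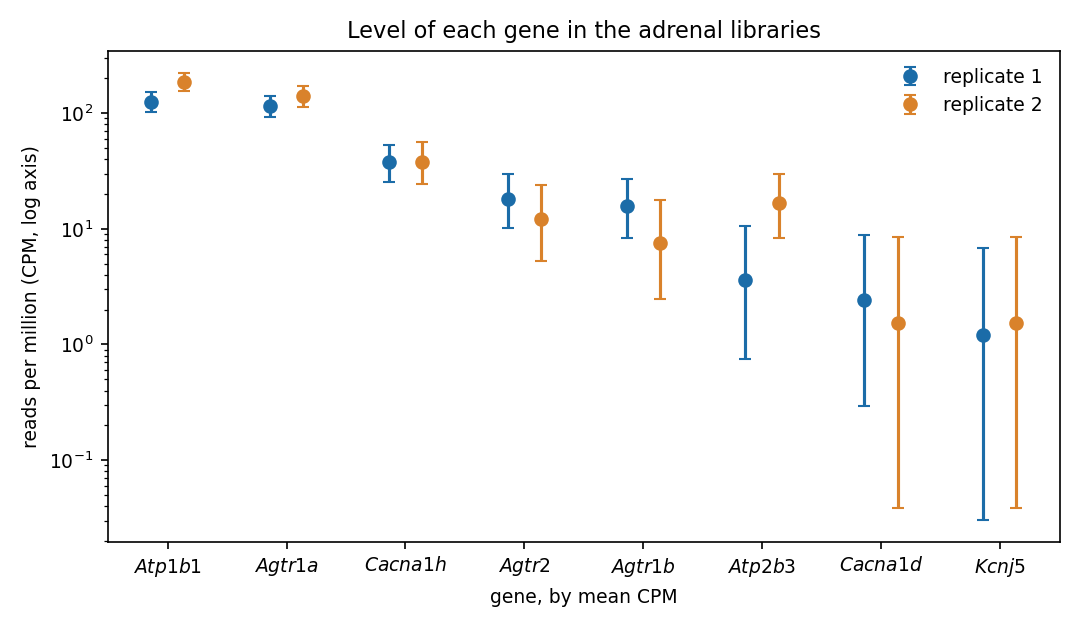
Level of each of the 8 genes in CPM on a log axis, with 1 point for each library (replicate 1 to the left of replicate 2) and bars for the exact 95% Poisson interval of the count. Atp1b1 and Agtr1a sit above 100 CPM in both libraries, and the intervals of Cacna1d and Kcnj5 span more than a decade on 1 or 2 reads.

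The AT1 receptor gene Agtr1a supplied most of the angiotensin II receptor reads. Agtr1a (chr13:30336441-30382867, plus strand, mm10) had 94 reads, or 114 CPM (92.2 to 139.6), in replicate 1 and 92 reads, or 140.1 CPM (113 to 172), in replicate 2. It held 77.0% (68.8 to 83.6) of the 122 receptor reads in replicate 1 and 87.6% (80.0 to 92.6) of the 105 in replicate 2. Between the AT1 copies, the share of Agtr1a was 87.9% (80.3 to 92.8) and 94.8% (88.5 to 97.8), and the intervals of the libraries overlapped. The models of 89 of 94 reads in replicate 1 and of 89 of 92 in replicate 2 held the whole coding sequence. Annotated models are given with their annotated ends, so these counts, here and for the other genes, describe models. How far each read ran is not known.

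The Agtr1a message was spliced almost throughout as the 3-exon transcript Agtr1a-201, in which 2 non-coding exons precede 1 exon with the whole coding sequence. This transcript held 84 of 94 reads (89.4%, 81.5 to 94.1) in replicate 1 and 77 of 92 reads (83.7%, 74.8 to 89.9) in replicate 2. The second exon (chr13:30344937-30345020, 84 bases, 5' untranslated) was held by 91 of 91 reads that could show it in replicate 1. In replicate 2 it was held by 85 of 87 (97.7%, 92.0 to 99.4), and the other 2 reads joined exon 1 directly to the coding exon. The annotated exon at chr13:30337590-30337691 was held by 0 of 90 and 0 of 87 reads, with upper Wilson limits of 4.09% and 4.23%. A longer form of this exon, with its annotated donor and a new acceptor, was held by 1 read in replicate 1, which is not among the 90. The annotated exon at chr13:30365121-30365235 was held by 1 of 90 and 1 of 87 reads. The joins that tell these forms apart are shown with the 15 bases before the join in lower case and the 15 bases after it in capitals, from the GENCODE M21 transcripts.
Agtr1a exon 1 to exon 2: ctgctgctctcccggACTTAACATATGAAA
Agtr1a exon 2 to coding exon: gaaagccatcaccagATCAAGTGCATTTTG
Agtr1a exon 1 to coding exon: ctgctgctctcccggATCAAGTGCATTTTG
The first join was made by 90 reads in replicate 1 and 85 in replicate 2, the second by 85 and 77, and the third, which skips exon 2, by 0 and 2.

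Around this main form, the remaining Agtr1a reads were spread thinly over 13 other splice chains. In all, 14 chains were seen, and 4 of them had reads in both libraries. A chain with an additional exon after a 622-base intron had 1 read in replicate 1 and 2 reads in replicate 2, and that exon combines the annotated acceptor of Agtr1a-202 with the annotated donor of Agtr1a-203. A new splice site at the end of a 25365-base intron after exon 2 was used by 2 and 3 reads, and a new site at the end of a 34478-base intron by 1 and 1. Reads of 3 models ended upstream of the coding exon, with 1 read in each of 2 models in replicate 1 and 2 reads of 1 model in replicate 2. Unspliced reads inside the coding exon numbered 3 in replicate 1 and 5 in replicate 2. New introns counted 10 and 12 uses against 179 and 168 uses of annotated introns.

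**Figure D2:**
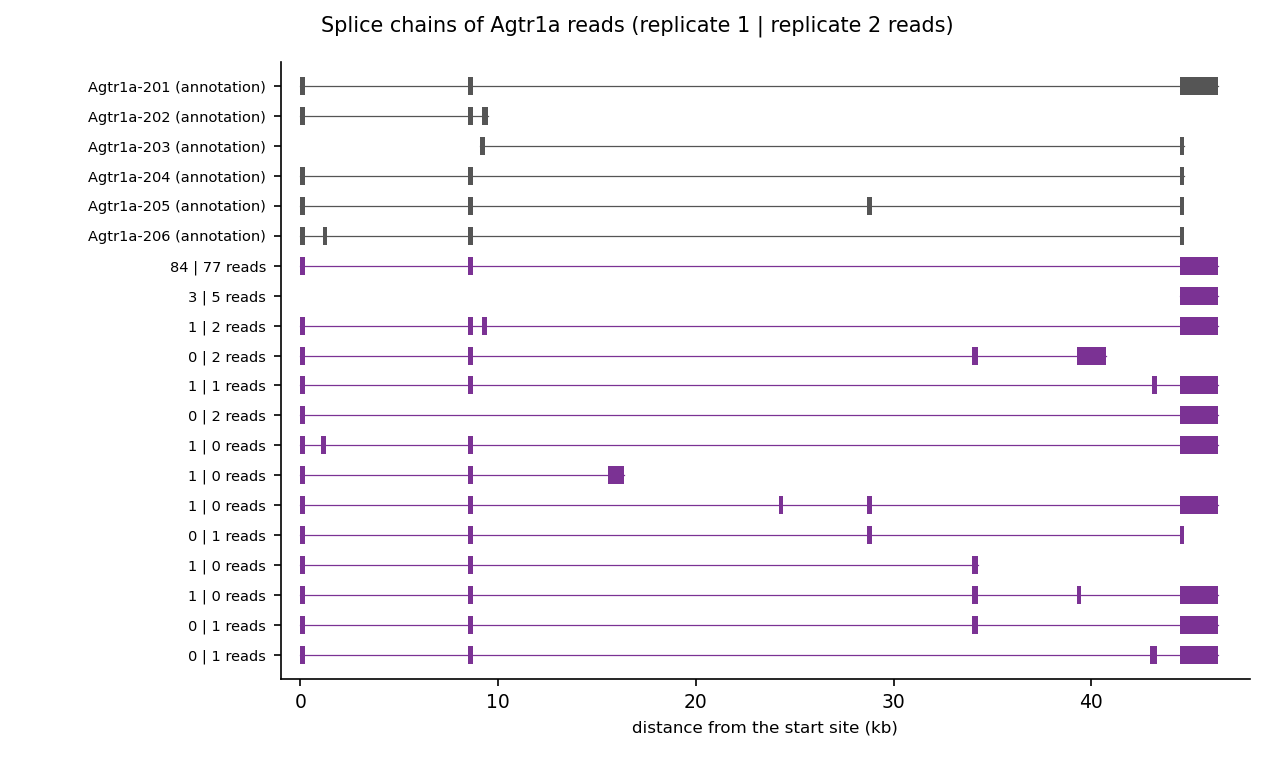
Exons (boxes, drawn with a minimum width) and introns (lines) of the 6 annotated Agtr1a transcripts and of the 14 splice chains in the reads, against distance in kb from the Agtr1a start site. The labels give reads in replicate 1 and then replicate 2; the annotated 3-exon chain carries 84 and 77 reads and each other chain at most 5 in a library.

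Agtr1b, the second rodent copy of the AT1 receptor gene, was read far less often than Agtr1a. Agtr1b (chr3:20314473-20367177, minus strand) had 13 reads, or 15.8 CPM (8.40 to 27.0), in replicate 1 and 5 reads, or 7.61 CPM (2.47 to 17.8), in replicate 2. These intervals overlapped. The 2-exon transcript Agtr1b-201 held 11 of 13 reads in replicate 1 and 5 of 5 in replicate 2. The models of all Agtr1b reads held the whole coding sequence, but how much of it each read crossed is not known. The coding sequences of Agtr1a and Agtr1b, without the stop codon, are 1077 bases each in the annotation. They are identical at 978 positions (90.8%) and differ at 99, and their longest identical stretch is 66 bases. The first 60 bases of each, 5' to 3', with the 7 bases that differ in capitals, show how the copies can be told apart within a read.
Agtr1a: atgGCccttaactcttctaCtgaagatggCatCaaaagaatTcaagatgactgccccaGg
Agtr1b: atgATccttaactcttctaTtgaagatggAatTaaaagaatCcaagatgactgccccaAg
These are differences of the reference sequence. The CAST/EiJ alleles of the hybrid were not compared and the bases of the reads were not examined. How the aligner split reads between the copies was not tested.

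The first exon of Agtr1b was also the first exon of reads of the neighbouring gene Cpb1, which encodes carboxypeptidase B1, an enzyme that removes basic residues from the end of peptides. This exon (chr3:20367034-20367177, 5' untranslated) was held by 19 reads in replicate 1 and 18 reads in replicate 2. Of these, 7 (36.8%, 19.1 to 59.0) in replicate 1 and 13 (72.2%, 49.1 to 87.5) in replicate 2 were assigned to Cpb1. All Cpb1 reads of both libraries began with this exon, and none matched the annotated Cpb1 transcript, which starts at chr3:20275733, 91444 bases downstream of the Agtr1b start. Cpb1 thus had 8.49 CPM in replicate 1 and 19.8 CPM in replicate 2. The intervals of the 2 shares overlapped, and no test was made on them.

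Within the Cpb1 reads the Agtr1b coding exon was skipped as a whole. The donor of the first exon joined the Agtr1b coding exon, 50558 bases away, in 11 reads in replicate 1 and 5 in replicate 2. It joined a site 76848 bases away in 5 and 10 reads, and a site 5 bases further in 2 and 1 reads. In replicate 2, 1 read joined a site 80948 bases away and 1 joined the annotated first exon of Cpb1, 4 bases inside its start. Every Cpb1 read held all 10 introns of Cpb1-201. All 1245 bases of its coding sequence were held by the models of the 7 reads of replicate 1 and of 12 of the 13 of replicate 2. The other read of replicate 2 held 1211 of them and ran on into Cpa3, the mast cell carboxypeptidase A gene, with 9 introns and 1183 coding bases of Cpa3. Reads assigned to Cpa3 numbered 3 in replicate 1 and 0 in replicate 2. The annotated join of Agtr1b and the direct join to Cpb1 share their left side, as written here with the bases after the join in capitals.
Agtr1b exon 1 to Agtr1b coding exon: gggcaccgtgcacggGTGCATTTTGAATTC
Agtr1b exon 1 to Cpb1 exon 1: gggcaccgtgcacggAGTGGAGAAGAACAG
Counted by first exon, this start thus had 19 reads in replicate 1 and 18 in replicate 2, of which 12 and 5 were counted under Agtr1b.

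The 100 bases before that shared start (chr3:20367178-20367277, minus strand, GRCm38.p6) are given 5' to 3' from RefSeq, with a TATAAA match in capitals.
Agtr1b promoter: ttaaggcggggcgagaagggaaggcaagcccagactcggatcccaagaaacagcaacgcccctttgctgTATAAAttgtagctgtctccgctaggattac
The match begins 31 bases before the start site. On either strand, TATAAA occurs in 4473 of the 32851 mouse promoters of the table (13.6%), each covering 250 bases before to 50 bases after a start. Promoters were in the table for 5 of the 8 genes, with 2 for Cacna1d. TATAAA was found for Agtr1b and Cacna1d and not for Agtr2, Atp1b1 or Kcnj5. The Cacna1d matches were all in the upstream of its 2 windows, at -205 and -150 in sense and -207 in antisense from the start. They were thus further from the start than the Agtr1b match. CCAAT, present in 37.4% of promoters, was found for Agtr1b, Agtr2, Atp1b1 and Cacna1d, and GGGCGG, present in 35.7%, for Atp1b1, Cacna1d and Kcnj5. The cAMP response element TGACGTCA (1.79% of promoters) and the SF-1 motif AAGGTCA (4.72%) were in none of these windows.

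**Figure D3:**
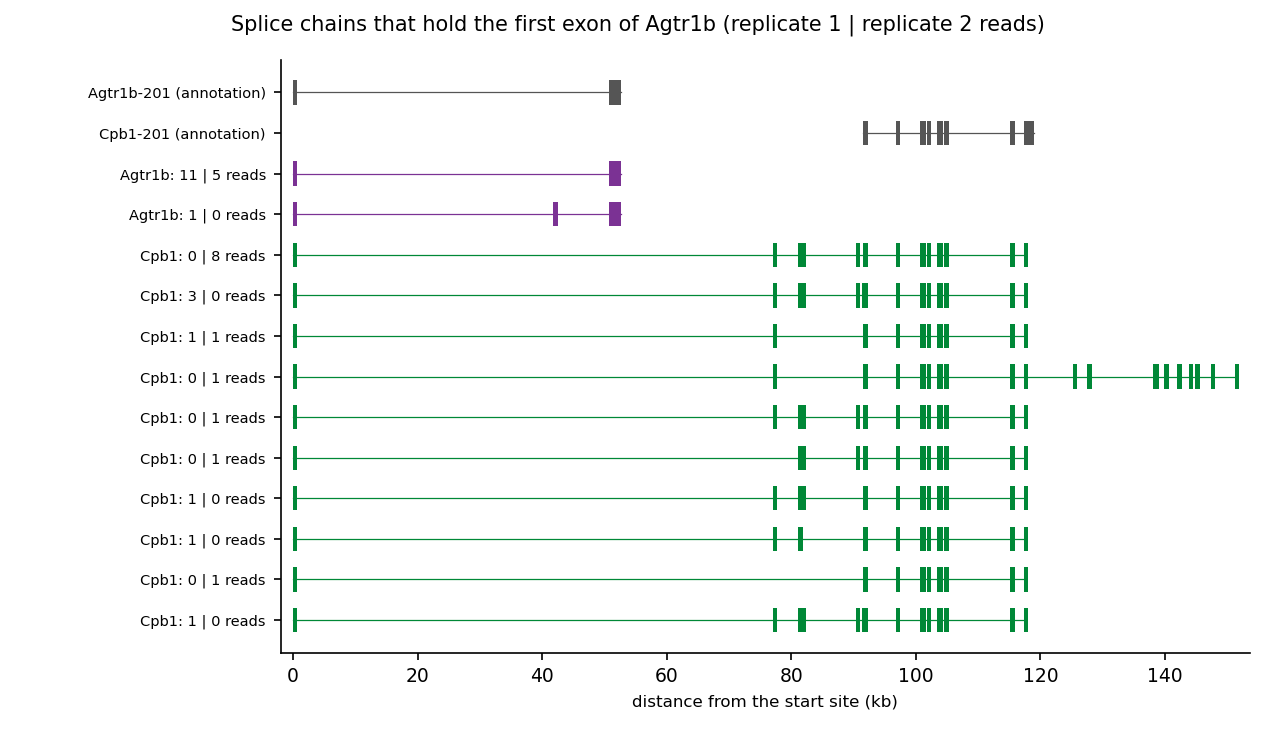
Exons (boxes, drawn with a minimum width) and introns (lines) of annotated Agtr1b-201 and Cpb1-201 and of the 12 splice chains that hold the Agtr1b first exon, against distance in kb from the Agtr1b start site. The labels give reads in replicate 1 and then replicate 2; the 10 chains assigned to Cpb1 pass over the Agtr1b coding exon.

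Agtr2, the AT2 receptor gene, was read at a level that overlapped that of Agtr1b. Agtr2 (chrX:21484544-21489164, plus strand) had 15 reads, or 18.2 CPM (10.2 to 30.0), in replicate 1 and 8 reads, or 12.2 CPM (5.26 to 24.0), in replicate 2. It made up 12.3% (7.59 to 19.3) of the receptor reads in replicate 1 and 7.62% (3.91 to 14.3) in replicate 2. The 3-exon transcript Agtr2-201 held 13 of 15 and 7 of 8 reads. The 60-base middle exon (chrX:21484851-21484910) was held by 13 of 13 and 7 of 7 reads that could show it. The other reads were 2 spliced reads in replicate 1, which began inside the first intron and read on through the middle exon, and 1 unspliced read in replicate 2. The whole coding sequence was present in the models of 15 of 15 and 7 of 8 reads.

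Cacna1h, the T-type channel pore, was the calcium channel gene with most reads among the alpha-1 genes listed. Cacna1h (chr17:25374285-25433783, minus strand) had 31 reads, or 37.6 CPM (25.6 to 53.4), in replicate 1 and 25 reads, or 38.1 CPM (24.6 to 56.2), in replicate 2. Of the reads of the 5 alpha-1 genes that were seen, Cacna1h held 31 of 49 (63.3%, 49.3 to 75.3) in replicate 1 and 25 of 44 (56.8%, 42.2 to 70.3) in replicate 2. Cacna1c, an L-type pore, held 12 of 49 and 16 of 44. Which cells of the gland these reads came from was not tested.

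Few Cacna1h reads spanned the gene. The annotated full-length transcript has 35 exons and 8220 bases, and 2 reads in replicate 1 and 1 in replicate 2 matched it. The last exon was held by 25 of 31 reads in replicate 1 and by 22 of 25 in replicate 2, and the first exon by 9 and 4 reads. Reads from the first to the last exon numbered 3 and 1. The median length of the models, weighted by reads, was 2039 bases with 3 exons in replicate 1 and 3514 bases with 10 exons in replicate 2. Unspliced reads within the last exon numbered 8 in replicate 1 and 4 in replicate 2. At the 5' end, 6 and 3 reads matched Cacna1h-203, a transcript annotated with a retained intron that stops far upstream of the last exon. Models with the whole coding sequence thus held 2 of 31 (6.45%, 1.79 to 20.7) and 1 of 25 (4.00%, 0.710 to 19.5) reads. Of 37 annotated internal exons, 9 had at least 10 reads in each library that could show them, and all such reads held each of the 9. One of the 9 has 2 annotated forms: the 161-base form (chr17:25376846-25377006) was held by 14 reads in replicate 1 and 16 in replicate 2, and the 108-base form, with a later acceptor, by 2 and 0. The remaining annotated exons, this shorter form included, had fewer reads than that minimum in at least 1 library.

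**Figure D4:**
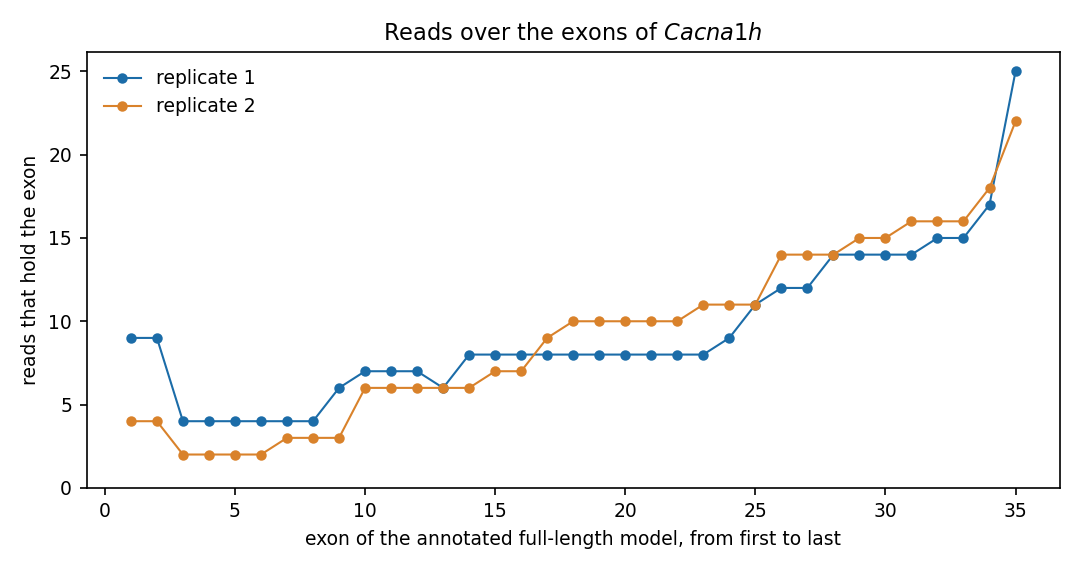
Number of reads that hold each of the 35 exons of the annotated full-length Cacna1h transcript, counted from the first exon, for replicate 1 and replicate 2. Reads are most numerous at the last exon, with 25 and 22 reads there, and the first 2 exons carry 9 and 4 reads against 4 and 2 at the third.

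Cacna1d, an L-type pore, was at the edge of detection. Cacna1d (chr14:30039939-30491455, minus strand) had 2 reads, or 2.43 CPM (0.294 to 8.77), in replicate 1 and 1 read, or 1.52 CPM (0.0385 to 8.48), in replicate 2. Both reads of replicate 1 were unspliced, and 1 of their models is 1 base long in the deposited annotation. The read of replicate 2 held 6 exons at the 3' end with 5 annotated introns. No read held the whole coding sequence of 6537 bases. Both counts lie under the 3 reads that a count of 0 allows, which are 3.64 CPM in replicate 1 and 4.57 CPM in replicate 2.

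Kcnj5, the potassium channel, was read once in each library. Kcnj5 (chr9:32314707-32344350, minus strand) stood at 1.21 CPM (0.0307 to 6.76) in replicate 1 and 1.52 CPM (0.0385 to 8.48) in replicate 2. The read of replicate 1 matched Kcnj5-202, with 3 exons. That of replicate 2 had 4 exons and 2 new introns around its additional exon. The models of both reads held the whole coding sequence of 1257 bases. Its channel partners were as low, with 1 read of Kcnj9 in each library and 1 of Kcnj6 in replicate 1 and 0 in replicate 2. Kcnj3 had no read in either table.

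Atp1b1, which folds and escorts the catalytic subunit of the sodium pump to the membrane, had the most reads of the 8 in both libraries. Atp1b1 (chr1:164437109-164458355, minus strand) had 103 reads, or 125 CPM (102 to 152), in replicate 1 and 122 reads, or 186 CPM (154 to 222), in replicate 2. The interval of replicate 2 lies above that of replicate 1. Atp1b1-201 held 97 of 103 (94.2%, 87.9 to 97.3) and 113 of 122 reads (92.6%, 86.6 to 96.1). All 4 internal exons were held by every read that could show them, 97 or 98 reads in replicate 1 and 116 or 117 in replicate 2. Unspliced reads at the 3' end numbered 5 in each library. Among the beta subunits, Atp1b1 held 42.0% (36.0 to 48.3) of 245 reads in replicate 1 and 56.5% (49.8 to 62.9) of 216 in replicate 2. Atp1b3 held 52.2% (46.0 to 58.4) and 39.4% (33.1 to 46.0). The intervals of these 2 subunits overlapped in replicate 1, and that of Atp1b1 was the higher, without overlap, in replicate 2.

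Atp2b3, the calcium pump gene, had no read that matched an annotated transcript, and most of its reads ended through a new splice site. Atp2b3 (chrX:73503086-73571005, plus strand) had 3 reads, or 3.64 CPM (0.751 to 10.6), in replicate 1 and 11 reads, or 16.7 CPM (8.36 to 30.0), in replicate 2. These intervals overlapped. From the donor at 73555235, the 3 reads of replicate 1 and 6 reads of replicate 2 joined a new acceptor at 73557376. This site lies 656 bases before the annotated acceptor at 73558032. The last exon of these models was 839 bases long in place of 183, with the same annotated end at 73558214. Whether each read ran to that end is not known. The annotated acceptors at 73558032 and 73570234 were used by no read. In replicate 2, 2 further reads joined the annotated 154-base alternative exon (chrX:73559864-73560017), 2 ended before the donor, and 1 was unspliced. The most frequent chain, with 21 exons from the annotated first exon to the new last exon, held 2 reads in replicate 1 and 5 in replicate 2. The annotated coding bases were all covered by the models of 2 of 3 and 6 of 11 reads. The 656 added bases are not a multiple of 3, so the frame annotated for the last exon is not carried through them. What these reads would encode after the donor was not checked. The annotated alternatives at this donor share the left 15 bases, and the 15 after the join are in capitals.
Atp2b3-201: cggatccagacacagGCAACTGGCCCGATT
Atp2b3-202: cggatccagacacagATCCGGGTGGTGAAA
Atp2b3-203: cggatccagacacagATGGAGGTAGTGAGT
The letters after the new acceptor are not printed, because no genome sequence was used here. Of the plasma membrane calcium pump reads, Atp2b3 held 3 of 25 (12.0%, 4.17 to 30.0) in replicate 1 and 11 of 30 (36.7%, 21.9 to 54.5) in replicate 2. Atp2b1, the pump found in most cells, held 17 of 25 and 16 of 30.

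The 8 genes could be grouped into those read mainly as annotated transcripts and those that were not. Annotated transcripts held between 84.6% and 100% of the reads of Agtr1a, Agtr1b, Agtr2 and Atp1b1 in each library. For Cacna1h the share was 25.8% (13.7 to 43.2) in replicate 1 and 16.0% (6.40 to 34.7) in replicate 2, with parts of annotated transcripts at 58.1% and 40.0%. For Atp2b3 reads with a new splice site held 66.7% (20.8 to 93.9) and 63.6% (35.4 to 84.8). The classes are the authors', and the 1 read of replicate 1 that they class as part of an annotated transcript used the new acceptor as well. Annotated transcripts carry their annotated ends in these tables, and many new models share those ends, so where such a read began or stopped is not known.

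**Figure D5:**
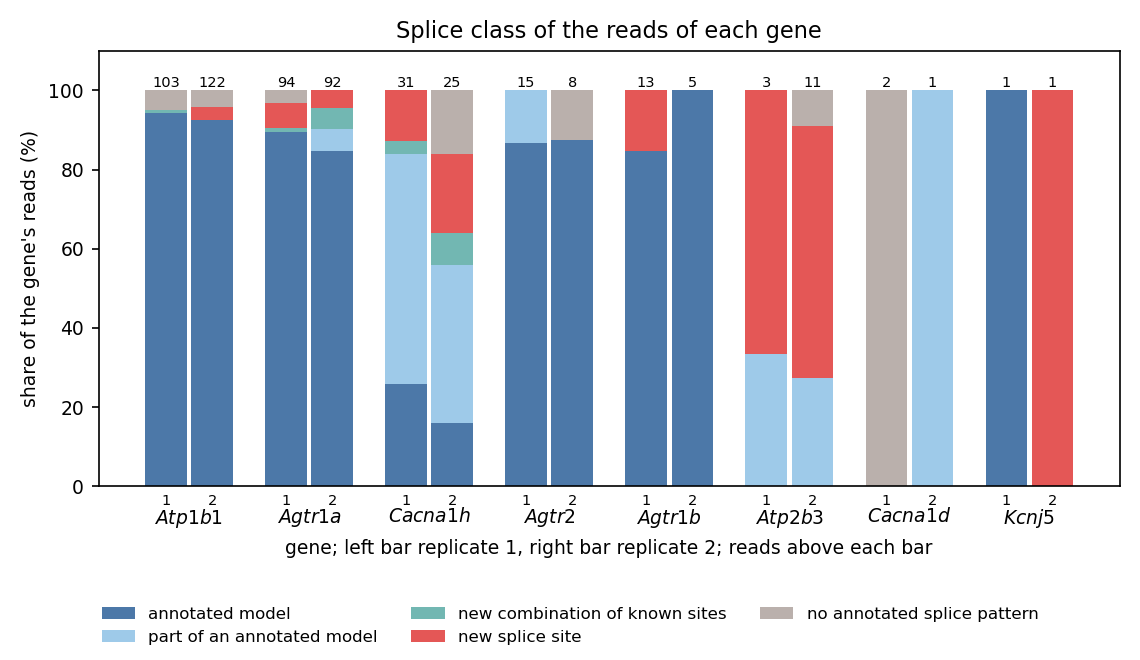
Share of each gene's reads in % by splice class, with the bar of replicate 1 to the left of that of replicate 2 and the number of reads above each bar. Annotated models fill most of the bars of Atp1b1, Agtr1a, Agtr2 and Agtr1b, and none of the bars of Atp2b3 and Cacna1d.

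None of the 8 genes was called as different between the libraries. The reads of replicate 1 were compared with those of replicate 2 by a two-sided exact binomial test at TMM-scaled library sizes, over the 8063 genes with at least 20 reads in sum. This compares 2 libraries of 1 group and not conditions. A call needed a ratio of 2-fold or more besides an adjusted p below 0.05, and 275 genes (3.41%) met both. Of these, 190 had more in replicate 1 and 85 had more in replicate 2, against 131 and 128 with library totals in place of TMM. Of the 4 members tested, 0 were called and 0 passed the adjusted p alone, which 893 genes (11.1%) did. Atp1b1 had a log2 ratio of replicate 1 over replicate 2 of -0.47 (1.38-fold, exact binomial p = 0.0159, Benjamini-Hochberg adjusted p = 0.110). The log2 ratio was -0.19 for Agtr1a (adjusted exact binomial p = 0.700), 0.08 for Cacna1h (adjusted exact p = 0.988) and 0.64 for Agtr2 (adjusted exact p = 0.633). The other 4 members had too few reads for the test. The use of the most abundant transcript was called as changed (Fisher's exact test, two-sided) for 26 of 5334 genes (0.487%) and for 0 of the 3 members tested, Agtr1a, Atp1b1 and Cacna1h (adjusted exact p = 1 for each).

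The genes listed here for angiotensin formation and turnover, among them proteins that bind angiotensin or its receptor, were read at widely unlike levels. Of 10 such genes, 8 had reads in both libraries, and Mas1, a receptor for angiotensin-(1-7), had no read in either table. Atp6ap2, the prorenin receptor, had 106 CPM in replicate 1 and 94.4 CPM in replicate 2, and Agtrap, which binds the AT1 receptor and promotes its internalisation, had 61.9 and 86.8 CPM. Enpep, aminopeptidase A, had 13.3 and 21.3 CPM, and Lnpep, an aminopeptidase that binds angiotensin IV, had 12.1 and 12.2 CPM. Of 3 of these genes that could be tested between the libraries, 0 were called. Downstream of the receptor, 13 of 15 Gq pathway genes had reads in both libraries and 0 of 7 tested were called. Gna11, a Gq-class alpha subunit, led with 180 and 241 CPM, followed by the signalling regulator Rgs2 with 101 and 143 CPM. The kinase Prkcd had 89.8 and 131 CPM and the phospholipase Plcb3 had 64.3 and 95.9 CPM.

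Among 15 sodium pump subunits, 9 had reads in both libraries. Fxyd6, a regulatory subunit, had 562 and 630 CPM in replicates 1 and 2. Fxyd1, phospholemman, had 272 and 143 CPM and was called higher in replicate 1 (log2 ratio 1.02 at TMM-scaled library sizes). The CPM are not TMM-scaled, and this ratio is close to the 2-fold limit, so the call may depend on the scaling. Of 7 calcium pumps, 5 had reads in both libraries and 0 of 2 tested were called. Atp2a2, the store calcium pump, had 143 and 155 CPM, above Atp2b1 with 20.6 and 24.4 CPM, and Atp2b2 had 2 reads in each library. Of 18 voltage-gated calcium channel subunits, 11 had reads in both libraries and 0 of 3 tested were called. Besides Cacna1h, Cacna1c had 14.6 and 24.4 CPM, and the accessory subunits Cacna2d1 and Cacnb1 had 13.3 and 15.2 CPM and 9.71 and 15.2 CPM. The T-type pores Cacna1g and Cacna1i, and Cacna1e, Cacna1f, Cacna1s and Cacna2d4, had no read in either table.

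Of 10 potassium and chloride channels named for the glomerulosa, 8 had reads in both libraries and 1 of 5 tested was called. Kcnk3, a background two-pore potassium channel, had 3099 CPM in replicate 1 and 3794 CPM in replicate 2, while Kcnj5 had 1 read in each. Clcn2, a chloride channel, had 26.7 and 68.5 CPM and was called lower in replicate 1 (log2 ratio -1.23). Kcnk9 had 37.6 and 28.9 CPM and Kcnk2 had 21.8 and 32.0 CPM. Of 20 genes that carry the calcium signal to Cyp11b2, 17 had reads in both libraries and 2 of 14 tested were called. Over all genes tested, 275 of 8063 (3.41%) were called. With so few genes in each list, the calls are given gene by gene and not as a result for a list. Nr4a1, an immediate early nuclear receptor, had 844 CPM in replicate 1 and 1854 CPM in replicate 2 and was called lower in replicate 1 (log2 ratio -1.03). That ratio is also close to the 2-fold limit, so the call may depend on the scaling. The calmodulin gene Calm3 had 360 and 166 CPM and was called higher in replicate 1 (1.21). Calm2 had 465 and 414 CPM. Fat cell markers also differed, with 3 of 4 called higher in replicate 1, and their part in these differences was not tested.

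Reads on the opposite strand lay across several of the 8 genes. Nme7, a kinase family gene, had 6 and 9 reads in replicates 1 and 2, and each reached over the 3' end of Atp1b1. The non-coding gene Gm32391 overlaps the start of Atp1b1 and had 1 and 2 reads. Chdh, choline dehydrogenase, had 18 and 8 reads that shared exon bases with Cacna1d, more than Cacna1d itself. Dcp1a overlapped the Cacna1d span with 4 and 5 reads and shared no exon bases with Cacna1d. New loci opposite Agtr1a had 3 and 7 reads, of which 3 and 5 shared bases with annotated Agtr1a exons. Of these, 2 in replicate 1 and 5 in replicate 2 lay over the annotated exon at chr13:30337590-30337691. In its annotated form that exon was held by 0 of 90 and 0 of 87 Agtr1a reads. New loci opposite Cacna1d had 1 and 8 reads. New opposite loci at the other members had at most 2 reads in a library. The sources used here do not say how reads were given a strand, so unspliced reads in such places, among them the 5 at the 3' end of Atp1b1 in each library, are uncertain.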

How the data were processed

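Whole adrenal gland RNA of 2 libraries was read by long-read RNA-seq. The authors deposited raw read counts per transcript model and an annotation of each library's models on mm10 (GRCm38) with GENCODE M21, per the deposited notes; new models are marked TALON, per the file contents. The sources used here name no sequencing platform, aligner or version. The deposited exon numbers, lengths and coordinates were used as given. Reads on spike-ins (0.691% and 0.779%) were removed and all novelty classes summed per gene. CPM, intervals, exact binomial and Fisher tests with Benjamini-Hochberg adjustment were computed in Python 3.11.15 with scipy 1.17.1, and TMM factors with edgeR 4.0.16 in R 4.3.3; DESeq2 1.42.0 size factors were an alternative. With 1 library on each side, edgeR's quasi-likelihood test has no residual degrees of freedom and was not run. Log2 ratios are of scaled CPM plus 1. The tests were checked on simulated data drawn with counting error only, so the check does not cover further variation between libraries. Depth was 824225 and 656826 reads, so 0 reads allow up to 3.64 and 4.57 CPM. An exon counted as held when at least 50% of it was covered in the count along Cacna1h. All 8 members are named, and of each pathway list the 4 genes of highest mean CPM, besides those called or without reads, which were named after their values were seen. Some genes of these lists are not reported here. The members and lists were chosen with earlier results of these data known. Alternatives were other scalings, filters, read classes, denominators, exon minimums and a length trend removed.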

Additional observations from a re-analysis of the deposited data

How the results depend on the processing

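Directions and calls of the members were mostly unmoved, but counts over all genes were not. Genes called higher in replicate 1 numbered 76 with the length trend removed, against 190, and genes called higher in replicate 2 numbered 128 with library totals, against 85. With library totals, 1 member, Atp1b1, passed the adjusted p alone, against 0, and the log2 ratio of Cacna1h turned to -0.0167, against 0.08. Library totals moved the median log2 ratio of all genes to -0.11, against -0.01. Changed transcript use was called for 10 genes with multi-exon models only, against 26. With annotated models only, 5 members had reads in both libraries, against 8, and Cacna1h stood at 7.90 CPM, Kcnj5 at 0.607 CPM and Atp2b3 and Cacna1d at 0. Internal exons with enough reads numbered 7 at a minimum of 20 reads and 32 at a minimum of 5, against 16 at 10. The cause of these moves was not tested, except that fewer models or exons enter under the stricter rules. Depth limits Cacna1d and Kcnj5, whose 1 or 2 reads support no ratio. No paired analysis was possible because both libraries belong to 1 group.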
